A study of Mus musculus with 2 samples.

Results

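Sarcomere and excitation-contraction genes are the set of transcripts that a muscle cell uses to build its contractile filaments and to couple an electrical signal to calcium release. They were followed here in C2C12 cells, an established mouse skeletal myoblast line, after depletion of Mybbp1a, which encodes a mainly nucleolar protein that binds transcription factors. The set was a list of 59 genes, and its members were the array probes whose gene name in the files equalled a listed name, ignoring case. That gave 101 of 41174 probes, for 57 of 27573 genes. The listed names Xirp1 and Mybpc1 had no probe under that rule, and Klhl41 was found under its older name Kbtbd10. By role the list held 16 myosins and myosin-associated genes, 12 troponin and thin-filament genes, 16 Z-disc and titin-linked genes, 9 calcium and excitation genes and 6 muscle energy enzymes.

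The knockdown cells were mixed stable clones carrying a short hairpin RNA against Mybbp1a, and the control cells were mixed stable clones carrying a control hairpin. Both were of C3H origin and grew below confluence in medium with high serum, the condition in which myoblasts divide and have not been induced to differentiate. The 2 arrays were two-colour hybridisations in which Cy5 marked the knockdown RNA and Cy3 the control RNA each time, labelled as biological replicates. No dye swap was made, so a dye bias left by normalisation and an effect of the knockdown cannot be told apart. Nothing in the labels says whether the replicates came from separate infections, clone pools or cultures, so the p-values reflect the spread of these samples alone, and that spread may be technical. Each array was on a slide of its own, and slide and replicate cannot be told apart.

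As background, a sarcomere shortens when thick filaments of myosin pull on thin filaments of actin, tropomyosin and troponin. Thin filaments are anchored at the Z-disc by alpha-actinin, and titin spans from the Z-disc to the middle of the thick filament. A nerve signal opens the voltage-sensing L-type calcium channel in the transverse tubule, which gates the ryanodine receptor of the sarcoplasmic reticulum, and the released calcium binds troponin C. Most of these genes are switched on as myoblasts leave the cell cycle and fuse, under the factors of the MyoD and MEF2 families.

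Values are log2 ratios of knockdown over control after loess normalisation within each array, or normalised log2 intensities of a channel, and each is named as one or the other. A gene was represented by its brightest tested probe, and levels are not compared between genes. Mybbp1a itself had levels of 10.99 and 10.83 in knockdown cells and 12.63 and 12.74 in control cells on arrays 1 and 2, which are log2 ratios of -1.64 and -1.91. All 4 fixed markers of skeletal myoblasts (Myod1, Myf5, Des and Cdh15) were tested. Their summed intensity was 46462 and 39255 in knockdown cells, against 49118 and 28073 in control cells. Such sums are on the linear scale, so the brightest probes weigh most in them. The number of arrays, 2, limits the precision of every value below.

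Many of these genes were dim or not seen in the undifferentiated cells. A probe counts as detected here when the scanner software marked it well above background. Of the 101 probes, 55.4% were detected in knockdown cells on array 1 and 70.3% on array 2, against 47.5% and 62.4% in control cells. Over all probes of the design the same shares were 65.2% and 79.3% in knockdown cells and 64.6% and 72.5% in control cells. No member probe was saturated. A gene was tested when a probe of it was detected on each array in at least 1 channel, which held for 40 of the 57 genes. Of these 40, 32 were detected in both channels on both arrays, 5 in knockdown cells on both arrays and in control cells on 1, 2 in control cells on both arrays and in knockdown cells on 1, and 1 in knockdown cells only. Because the 40 passed through being detected, they do not stand for the whole list.

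The 12 genes detected in no channel on either array came from all classes. They were Myh4, which encodes the fastest myosin heavy chain of limb muscle, Myl2, the slow and ventricular regulatory light chain, and Mybpc2, the fast myosin-binding protein C. Lmod2, an actin nucleator of the thin filament, was the thin-filament gene among them. At the Z-disc they were Actn2, an alpha-actinin, Myoz2, Myot, Csrp3 and Kbtbd10. The others were Casq1, the fast calcium-binding protein of the sarcoplasmic reticulum, and the enzymes Ckmt2 and Pygm. Detected on 1 array only were Myh8, the perinatal myosin heavy chain, Unc45b, a myosin chaperone, Myom1, an M-band protein, Trim63, a ubiquitin ligase, and Mb, myoglobin. For these 17 genes a ratio between knockdown and control was not measurable at this signal, which is not evidence that they were absent.

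**Figure D1:**
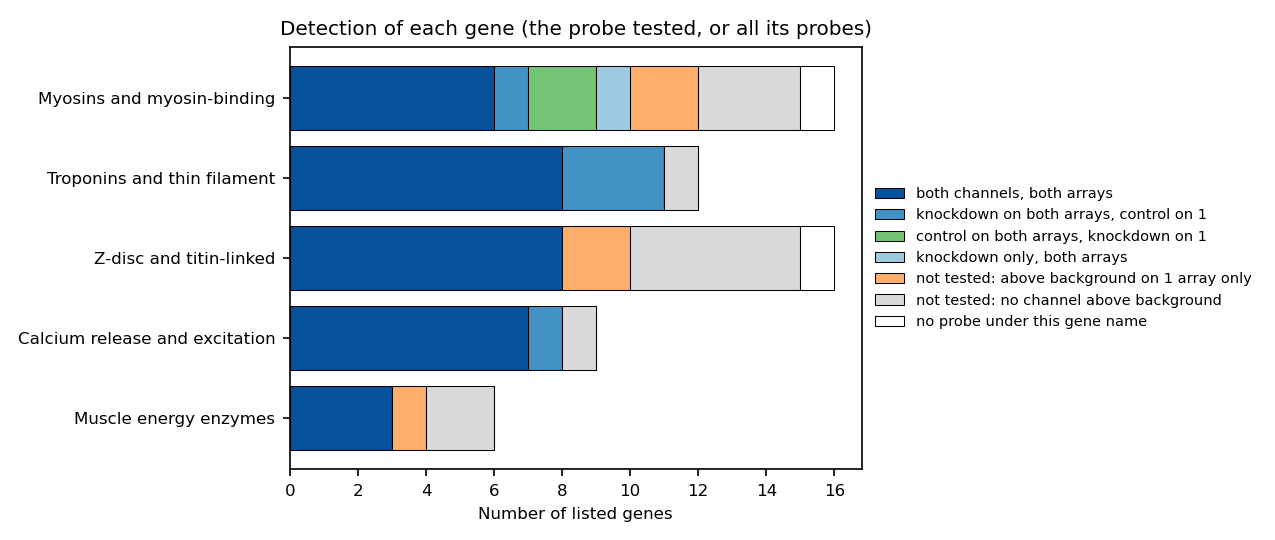
Number of listed genes (x axis) in each functional class (y axis), divided by the channels in which the gene's tested probe, or all its probes where none was tested, was well above background. Of the 59 listed genes, 32 were detected in both channels on both arrays, and 12 were detected in no channel.

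No member passed the test of the ratio against 0 with limma at an adjusted p of 0.05, where 0% of the 18065 genes tested passed. With median centring of each array in place of loess, 9 members were called higher and 2 lower (27.5% of 40), as were 3045 and 58 of all genes (17.2%), and the median ratio of all genes was 0.21. At an unadjusted limma p under 0.05 there were 9 members higher in knockdown cells, where the share of all genes was 13.4%, and 3 lower, where it was 7.45%. Of the 3, Myh1 and Myh7 were detected in knockdown cells on 1 array only. On the other array they passed the filter through the control channel alone. They were also the 2 called lower with median centring. With detection required in both channels, 10 of 33 members were higher and 1 lower, and the share of all genes is not given. The fit left 1 degree of freedom for the spread, and with 2 arrays the smallest p of an exact sign-flip test is 0.5. The text therefore gives what each array showed, and no member is described as changed. With the scanner software's processed signals the mean log2 ratio was -1.64 for Myh1, 1.08 for Myh3, 0.74 for Tnnt3, 1.52 for Neb and 0.72 for Hrc. These were -0.72, 0.40, 0.14, 0.39 and 0.23 with loess.

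Of the 40 tested members, 22 had a ratio above 0 on both arrays, against 40.6% of all genes, and 7 had one below 0 on both, against 29.4%. The remaining 11 had opposite signs, which held for 30% of all genes. These shares of all genes are the background for the class counts below as well. The median member ratio was 0.12 on array 1 and 0.05 on array 2, beside 0.03 on each array for all genes. At a log2 ratio of at least 0.5 on both arrays, 3 members were higher (Tnnt1, Actn3 and Ldb3), where the share of all genes was 3.49%, and 1 was lower (Cryab), where it was 0.731%. None was at least 2-fold higher on both arrays, against 0.631% of all genes, and none at least 2-fold lower, against 0.0554%. The 2 arrays differed by over 1 log2 unit for 4 members, Myl1, Tnnt2, Tmod1 and Actn3, and for 2.39% of all genes.

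Markers of other cell types were read beside these values. Of 9 tested fibroblast markers of 10 listed, 8 were above 0 on both arrays and none below, with a median of 0.82, and Col1a1 (1.71 and 4.60) and Pdgfrb (1.04 and 1.40) were at least 2-fold higher on both. The summed intensity of the whole list was 649284 and 722803 in knockdown cells, against 406328 and 330007 in control cells. S100a4 (0.69 and 0.94) had the highest level in that sum. The sums for the other cell types cover 4 defining markers each. On that basis Col1a1, Col1a2, Col3a1 and Pdgfra summed to 293554 and 347322 in knockdown cells, against 184951 and 137290 in control cells. Of the 7 tested smooth muscle markers of 9 listed, 4 were above and 2 below 0. The 4 above 0 included Des, which is also a member here and a marker of skeletal myoblasts. The 4 defining smooth muscle markers, of which Myh11 was not tested, summed to 42867 and 39165 in knockdown cells, against 46137 and 46284 in control cells. Acta2 (-0.12 and -0.27) had the highest level in that sum, while Cnn1 read 0.61 and 0.59 and Tagln 0.52 and -0.01. Of the 6 tested cardiac markers of 9, 3 were above and 1 below, and the defining genes Myh6 and Myl7 were not tested. The defining cardiac markers that were tested summed to 440.2 and 356.3 in knockdown cells, against 397.2 and 329.6 in control cells. The part of other cell types in the results on sarcomere genes was not tested, and in bulk RNA fewer cells of a type and less RNA per cell cannot be told apart.

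**Figure D2:**
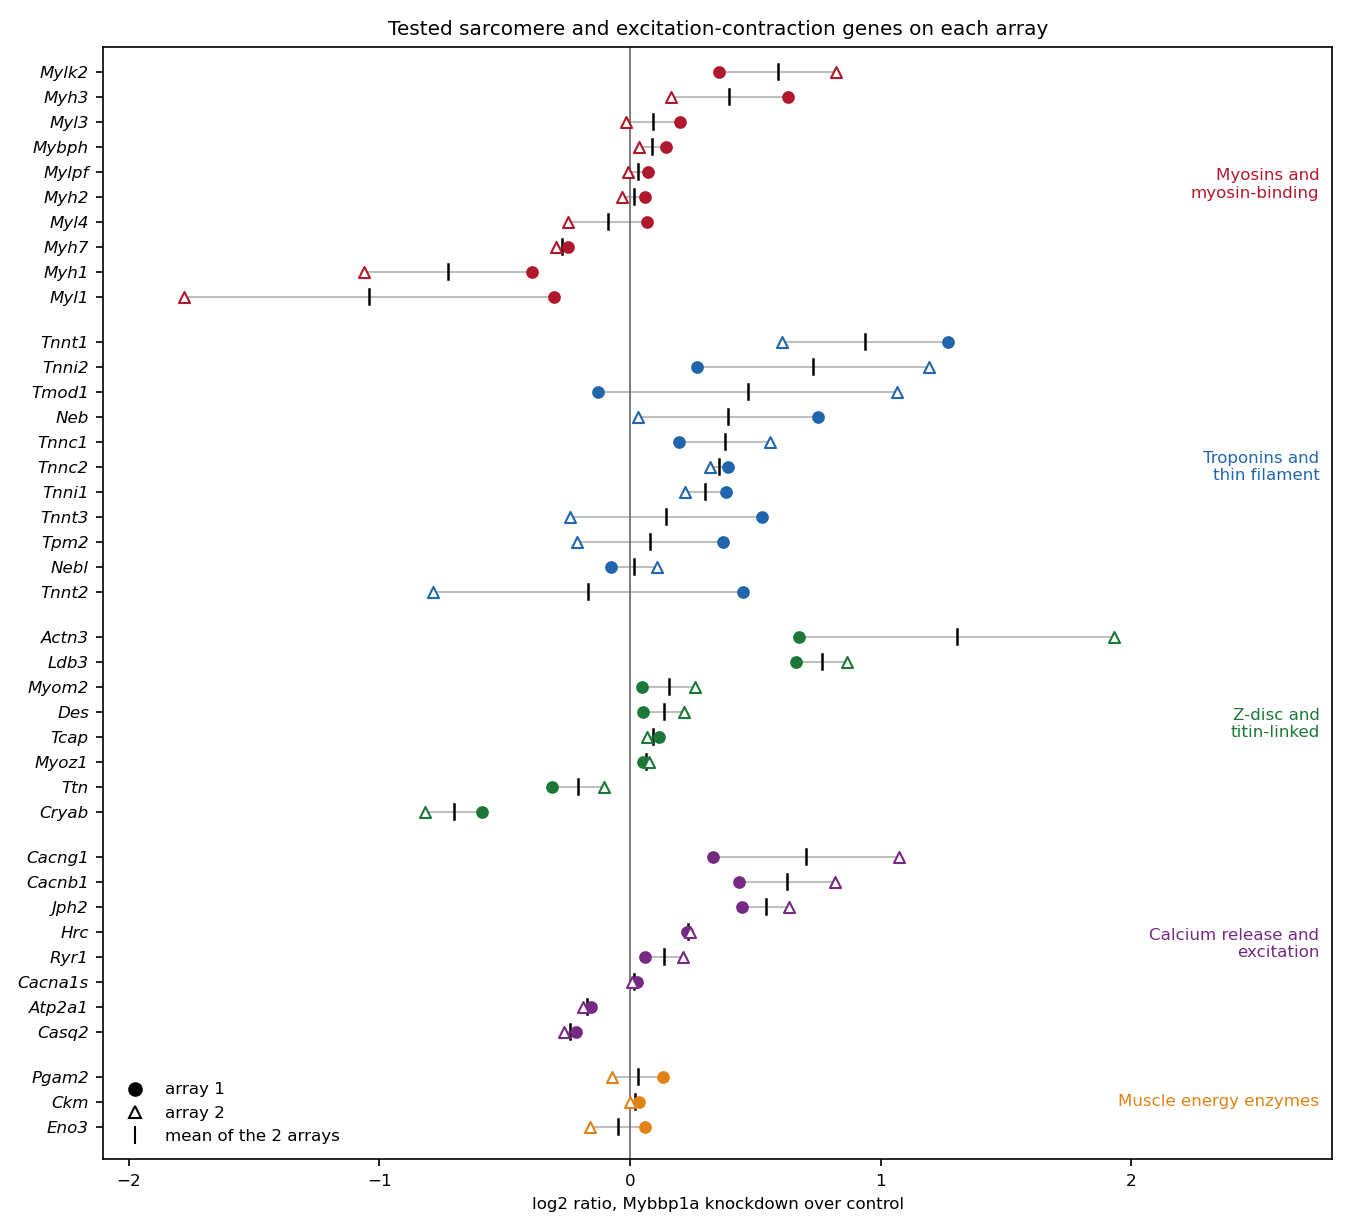
The log2 ratio of Mybbp1a knockdown over control (x axis) for each of the 40 tested genes (y axis), grouped and coloured by class, with filled circles for array 1, open triangles for array 2 and a bar at their mean. The Z-disc and calcium genes have both arrays on the same side of 0, while 11 genes of the other classes have the arrays on opposite sides. Opposite signs were found for 30% of all genes tested.

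Sequences are printed for a selection of member probes, with positions on mouse build mm8 as the files give them. Some of the printed probes were not the ones used in the test. The probes of Cryab, Jph2, Mylk2 and Myl1 are not printed. The first pairs are shown because both probes of a gene share bases, so that their likeness is not independent support. The capitals mark the shared run, 32 bases for Myh3 and 47 bases for Myl4. The Myh3 probes lay at chr11:66917377-66917581 and chr11:66917550-66917609, and the Myl4 probes at chr11:104400198-104400568 and chr11:104400211-104400581, all on the plus strand.
Myh3 probe 1: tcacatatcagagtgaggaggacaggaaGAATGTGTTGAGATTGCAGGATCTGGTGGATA
Myh3 probe 2: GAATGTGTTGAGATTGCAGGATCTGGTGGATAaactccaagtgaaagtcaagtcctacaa
Myl4 probe 1: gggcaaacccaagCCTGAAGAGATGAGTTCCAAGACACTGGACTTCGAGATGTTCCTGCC
Myl4 probe 2: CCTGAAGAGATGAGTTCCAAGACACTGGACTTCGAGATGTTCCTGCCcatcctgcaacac
Each of these probes has 60 bases. On the genome Myh3 probe 1 spans 205 bp and both Myl4 probes span 371 bp, so their bases are not contiguous there. No exon annotation of mm8 was used, and whether a probe crosses an exon junction was not checked.

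The myosin class was divided between the directions. Of its 10 tested members, 3 were above 0 on both arrays, 3 below 0 on both and 4 of opposite sign, with a median log2 ratio of 0.02. The adult and fast-fibre genes Myh1 and Myl1 had the lowest ratios of the class on array 2, and the kinase gene Mylk2 was the highest of the class on that array. The embryonic heavy chain gene Myh3 was detected in knockdown cells only.

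Myl1 encodes the fast essential light chain, which supports the myosin lever arm. Its level was 7.58 and 7.12 in knockdown cells and 7.88 and 8.90 in control cells, giving log2 ratios of -0.30 and -1.78. The ratio was below 0 on both arrays, with the control level of array 2 the highest of these levels, and the adjusted p in limma was 0.275. The other Myl1 probe, detected in no channel, read 0.20 and -0.26. Myh1, the heavy chain of fast IIx fibres, had levels of 6.79 and 6.77 in knockdown cells, where it was detected on 1 array, and 7.17 and 7.83 in control cells. Its log2 ratios were -0.39 and -1.06 (limma adjusted p = 0.207), while its other probe, too dim to be tested, read 0.06 and 0.03. Myh7, the slow heavy chain, was likewise detected in control cells on both arrays and in knockdown cells on 1, with log2 ratios of -0.25 and -0.30.

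Mylk2 encodes the skeletal muscle myosin light chain kinase, which phosphorylates the regulatory light chain. It was at 10.28 and 9.91 in knockdown cells and at 9.93 and 9.08 in control cells, so it was higher in knockdown cells on each array, while array 2 of the knockdown lay just under array 1 of the control. The log2 ratios were 0.36 and 0.82, with a mean of 0.59 ± 0.33 (SD, n = 2) and a limma adjusted p of 0.199. Myh3 had knockdown levels of 7.78 and 6.81, against control levels of 7.15 and 6.65 that were not well above background on either array. Its log2 ratios were 0.63 and 0.16 (limma adjusted p = 0.267), and the overlapping probe read 0.64 and 0.18. With median centring its mean log2 ratio was 0.19, so no lower bound on the fold is given.

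The other myosin genes lay near 0. Myl4, the embryonic and atrial essential light chain gene, read 0.07 and -0.25, and its overlapping probe 0.06 and -0.26. Myl3, the slow essential light chain gene, read 0.20 and -0.01 with its brightest probe and -0.06 and -0.83 with its other probe, at chr9:110613944-110614238. The log2 ratios of Myh2, the IIa heavy chain gene, were 0.06 and -0.03, those of Mylpf, the fast regulatory light chain gene, 0.07 and -0.01, and those of Mybph, which encodes a myosin-binding protein, 0.14 and 0.04. Of 4967 pairs of member probes from different genes, 3 matched at 70% or more of at least 30 aligned bases, all between myosin heavy chains. They were the Myh3 probes against a Myh4 probe (75.7% over 37 bases and 72.7% over 55 bases) and Myh1 against Myh8 (73.3% over 30 bases).

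The troponin and thin-filament class had a median log2 ratio of 0.36, above those of the other 4 classes in the loess-normalised values. Of its 11 tested members 6 were above 0 on both arrays, none was below 0 on both, and 5 had opposite signs. The 6 were the slow and fast troponin genes Tnnt1, Tnni1, Tnni2, Tnnc1 and Tnnc2, together with Neb. The cardiac and fast troponin T genes Tnnt2 and Tnnt3 were among the 5 on which the arrays disagreed.

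The probes of the 3 troponin T genes are shown because these isoforms, which tie the troponin complex to tropomyosin, gave unlike readings. On mm8 the Tnnt1 probe lay at chr7:4111571-4111630 on the minus strand and the Tnnt2 probe at chr1:137667810-137668122 on the plus strand. The Tnnt3 probes lay at chr7:142321985-142323747 and chr7:142321739-142321964 on the plus strand. The Tnnt2 probe spans 313 bp of the genome and the Tnnt3 probes 1763 and 226 bp.
Tnnt1 (slow): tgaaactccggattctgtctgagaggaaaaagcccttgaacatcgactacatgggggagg
Tnnt2 (cardiac): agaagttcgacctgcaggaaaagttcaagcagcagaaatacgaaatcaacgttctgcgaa
Tnnt3 (fast) probe 1: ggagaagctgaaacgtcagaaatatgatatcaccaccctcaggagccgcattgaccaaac
Tnnt3 (fast) probe 2: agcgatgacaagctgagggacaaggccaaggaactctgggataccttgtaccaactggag

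Tnnt1 was at 9.87 and 8.70 in knockdown cells and at 8.60 and 8.09 in control cells. Its log2 ratios were 1.27 and 0.61, a mean of 0.94 ± 0.47 (SD, n = 2), and it was higher on both arrays with a limma adjusted p of 0.186. Tnnt2 was at 13.02 and 13.16 in knockdown cells and at 12.57 and 13.94 in control cells. Its log2 ratios of 0.45 and -0.79 point opposite ways. The control levels differed more between the arrays than the knockdown levels did. The levels depend on scaling between the slides, so the channel behind the disagreement cannot be told. Tnnt3 probe 2, the one used in the test, read 0.53 and -0.24, whereas probe 1 read 0.50 and 0.18.

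Troponin I holds the complex in its inhibitory state and troponin C binds calcium. Tnni2, the fast troponin I gene, was at 10.10 and 10.03 in knockdown cells and at 9.83 and 8.83 in control cells, with log2 ratios of 0.27 and 1.19 and a limma adjusted p of 0.255. Tnni1, the slow form, had ratios of 0.38 and 0.22, and 0.08 and 0.06 with its other probe. Tnnc1, the slow and cardiac troponin C gene, had ratios of 0.20 and 0.56, and Tnnc2, the fast troponin C gene, 0.39 and 0.32 (limma adjusted p = 0.190). Tnnc2 was the troponin gene whose arrays lay closest together.

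Among thin-filament genes other than the troponins, the arrays differed most for Tmod1, which encodes the tropomodulin that caps the slow-growing end of the thin filament. Its level was 9.97 and 9.64 in knockdown cells and 10.10 and 8.57 in control cells, with log2 ratios of -0.13 and 1.07. The other Tmod1 probe, which shares 22 bases with it, read 0.04 and 0.92. Tpm2, beta-tropomyosin, was at 14.30 and 14.64 in knockdown cells and at 13.93 and 14.85 in control cells. Its ratios of 0.37 and -0.21, and 0.21 and -0.32 with the other probe, were above 0 on array 1 and below 0 on array 2. Neb, nebulin, a ruler of thin-filament length, had 0.75 and 0.03, with 0.13 and 0.03 from its other tested probe, and Nebl, nebulette, had -0.07 and 0.11.

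**Figure D3:**
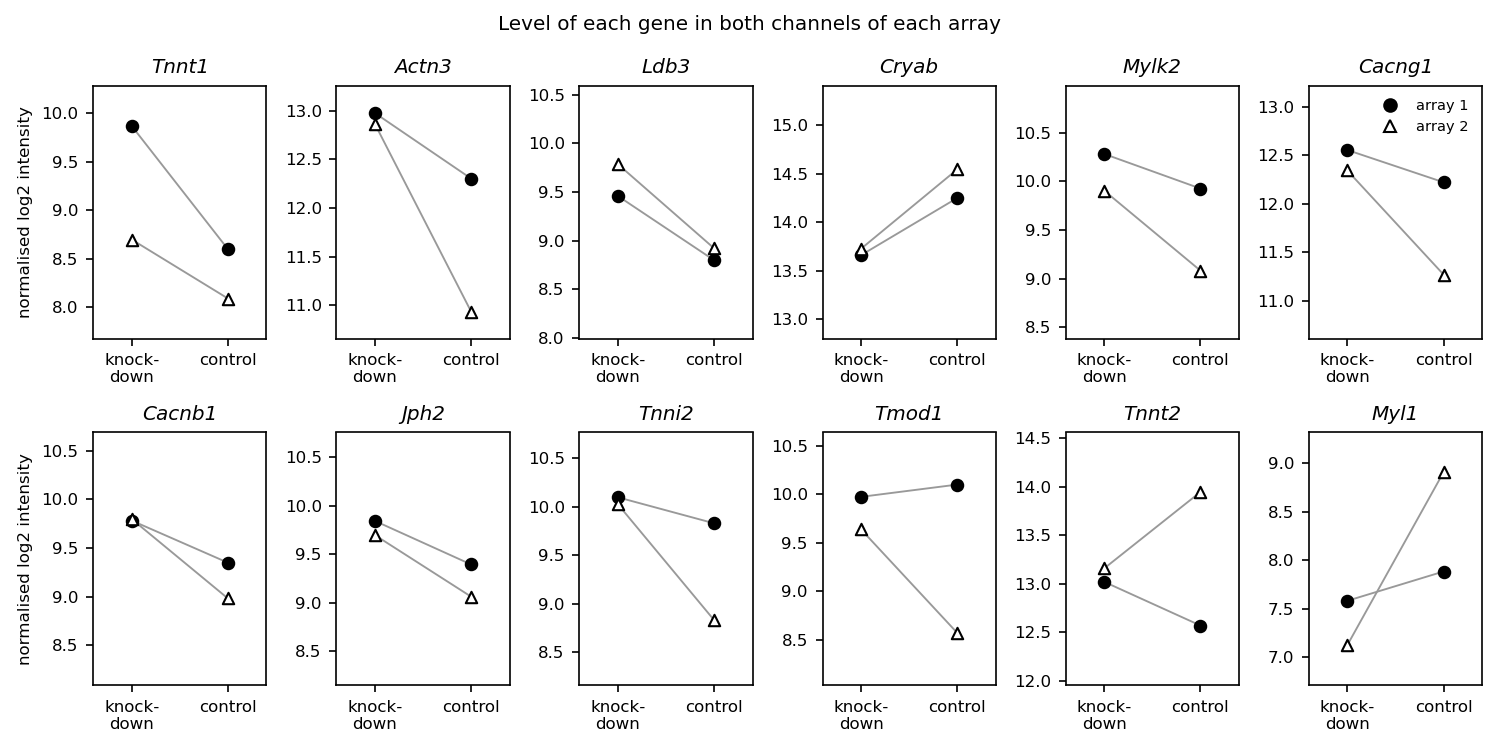
Normalised log2 intensity (y axis, each panel spanning the same range) of 12 genes in the knockdown and the control channel, with filled circles for array 1, open triangles for array 2 and a line joining the channels of an array. The knockdown levels of the 2 arrays lie closer together than the control levels for every gene shown except Tnnt1 and Ldb3.

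The Z-disc and titin-linked class held the highest member ratio and the only member lower by 0.5 or more on both arrays. Of its 8 tested members, 6 were above 0 on both arrays and 2 below, with a median of 0.11. Among all genes 40.6% were above 0 on both arrays and 29.4% below. Myoz1 and Tcap, counted among the 6, turned below 0 on average with the scanner software's own normalised signals, and Myoz1 also with median centring.

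The Actn3 and Ldb3 probes are shown because these genes had log2 ratios over 0.5 on both arrays. The Actn3 probe lay at chr19:4861727-4862212 on the minus strand, a span of 486 bp. The Ldb3 probe used in the test lay at chr14:33358559-33358618, also on the minus strand.
Actn3: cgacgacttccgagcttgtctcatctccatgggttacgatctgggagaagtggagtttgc
Ldb3: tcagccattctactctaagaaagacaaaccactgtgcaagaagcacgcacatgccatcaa

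Actn3 encodes the alpha-actinin of fast fibres, which cross-links thin filaments at the Z-disc. Its level was 12.98 and 12.87 in knockdown cells and 12.30 and 10.93 in control cells. The log2 ratios were 0.67 and 1.93, with a mean of 1.30 ± 0.89 (SD, n = 2) and a limma adjusted p of 0.206. Ldb3 encodes a PDZ and LIM domain protein that binds alpha-actinin, and its level was 9.46 and 9.79 in knockdown cells, against 8.80 and 8.92 in control cells. The log2 ratios of 0.66 and 0.87 were close to each other (mean 0.76 ± 0.14, SD, n = 2, limma adjusted p = 0.179). The other Ldb3 probes, at chr14:33390595-33390654 and chr14:33390882-33390941, read 0.13 and 0.11, and 0.21 and 0.15, so the higher ratio was seen with 1 of 3 probes.

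Cryab encodes alphaB-crystallin, a small heat-shock protein that binds titin and desmin in muscle. It was at 13.66 and 13.73 in knockdown cells and at 14.25 and 14.54 in control cells. With the probe used in the test the log2 ratios were -0.59 and -0.82, with a mean of -0.70 ± 0.16 (SD, n = 2) and a limma adjusted p of 0.179. That probe lay at chr9:50508565-50508624 on the plus strand, and the other Cryab probe, at chr9:50505406-50505465, read -0.04 and 0.01. The lower reading was thus also seen with 1 probe and not with the other.

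Des, the intermediate filament gene desmin, was printed on the array many times over. Its level was 13.65 and 13.80 in knockdown cells and 13.60 and 13.58 in control cells, with log2 ratios of 0.05 and 0.21. The 10 spots kept on array 1 ranged over ratios of -0.01 to 0.15 and the 9 kept on array 2 over 0.16 to 0.29, with SDs of 0.06 and 0.04. The spots of array 1 and array 2 did not overlap, so for this gene the arrays differed by more than the spots within an array. Ttn, titin, had 9 probes of which 3 were tested, and they read -0.31 and -0.10, -0.15 and -0.06, and 0.12 and -0.04. Myom2, an M-band protein gene, read 0.05 and 0.26, Myoz1, which encodes a calcineurin-binding Z-disc protein, 0.05 and 0.08, and Tcap, the titin cap gene, 0.12 and 0.07.

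**Figure D4:**
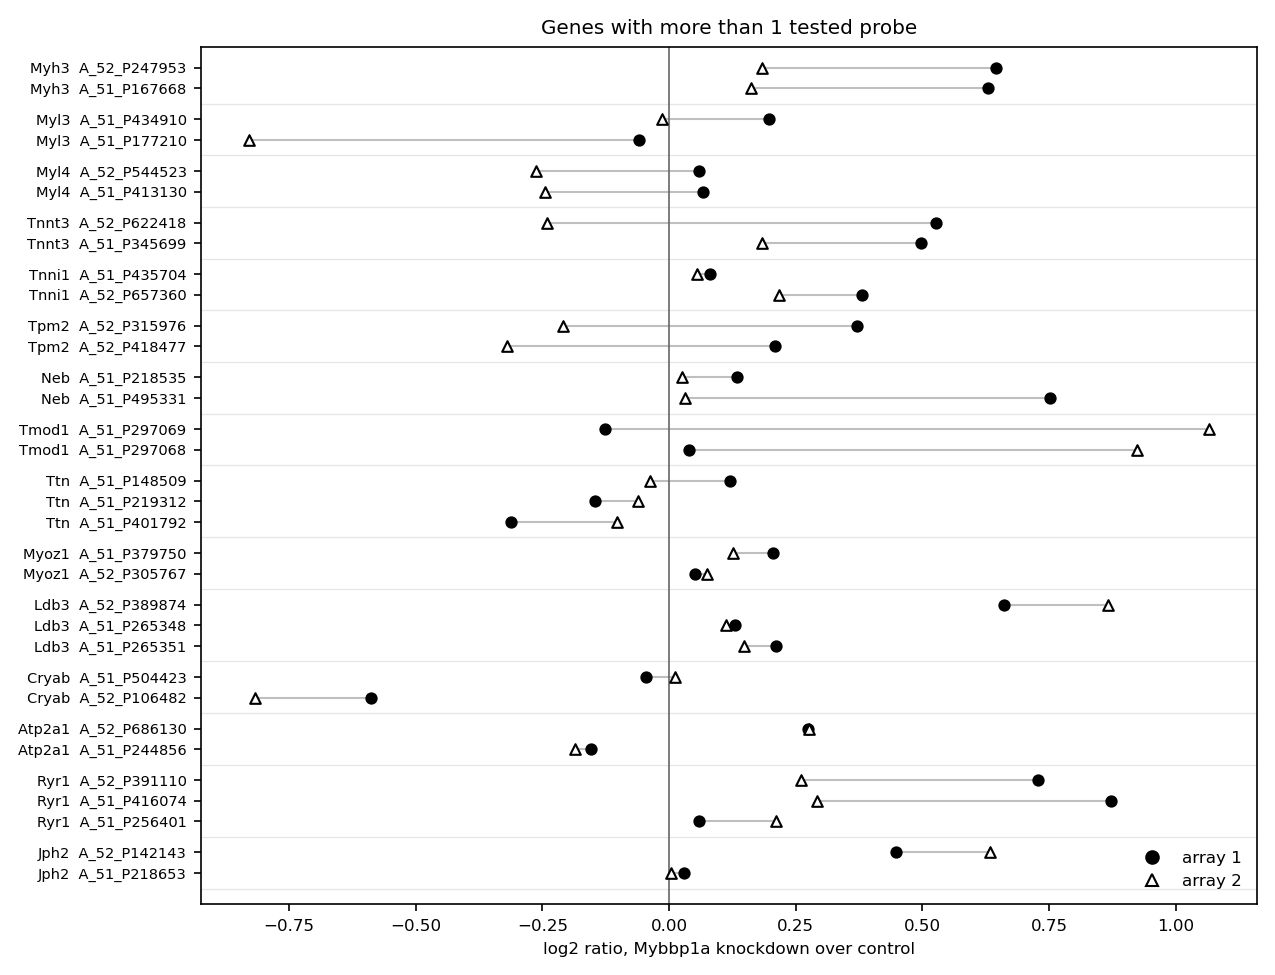
The log2 ratio of Mybbp1a knockdown over control (x axis) for each of the 33 tested probes (y axis, labelled with gene and probe name) of the 15 genes that had more than 1, with filled circles for array 1 and open triangles for array 2. Probes of Ldb3, Cryab, Jph2 and Atp2a1 read differently from each other on both arrays, while the overlapping probes of Myh3, Myl4 and Tmod1 lie close together.

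In the calcium and excitation class all 8 tested members had 1 direction on both arrays, 6 above 0 and 2 below, with a median of 0.18. Over all genes 40.6% were above 0 on both arrays and 29.4% below. The highest mean ratios were those of Cacng1, Cacnb1 and Jph2. Cacna1s, 1 of the 6, turned below 0 on average with the scanner software's signals, and Atp2a1, 1 of the 2, turned above 0 with median centring and with the mean over its probes.

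Probes of the auxiliary channel subunits Cacnb1 and Cacng1 are shown with the probes of the ryanodine receptor Ryr1 other than its brightest. The brightest Ryr1 probe, which was used in the test and read lower than these on array 1, is not printed. All lay on the minus strand of mm8, Cacnb1 at chr11:97821355-97821787, Cacng1 at chr11:107519872-107519931, and Ryr1 at chr7:28713559-28714265 and chr7:28712530-28713228. The Cacnb1 probe spans 433 bp of the genome and the Ryr1 probes 707 and 699 bp.
Cacnb1: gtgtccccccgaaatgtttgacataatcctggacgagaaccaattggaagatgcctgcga
Cacng1: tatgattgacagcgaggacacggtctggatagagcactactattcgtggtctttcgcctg
Ryr1 probe 1: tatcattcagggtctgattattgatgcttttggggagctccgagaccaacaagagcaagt
Ryr1 probe 2: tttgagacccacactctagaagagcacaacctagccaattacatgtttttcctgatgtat

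Cacng1 encodes the gamma subunit of the skeletal L-type channel. It was at 12.56 and 12.34 in knockdown cells and at 12.22 and 11.27 in control cells. Its log2 ratios were 0.33 and 1.07, a mean of 0.70 ± 0.52 (SD, n = 2) with a limma adjusted p of 0.222. Cacnb1, the beta subunit that brings the channel to the membrane, was at 9.78 and 9.80 in knockdown cells and at 9.35 and 8.98 in control cells, with log2 ratios of 0.43 and 0.82. The limma adjusted p of Cacnb1 was 0.186. The pore and voltage-sensor subunit gene Cacna1s read 0.03 and 0.01.

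Jph2 encodes junctophilin, which holds the tubule and reticulum membranes together. It was at 9.84 and 9.70 in knockdown cells and at 9.40 and 9.06 in control cells, with log2 ratios of 0.45 and 0.63 and a limma adjusted p of 0.183. Those values came from the probe at chr2:163028325-163028384, whereas the other Jph2 probe, at chr2:163029231-163029290, read 0.03 and 0.00.

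Ryr1, the calcium release channel, had 3 tested probes, all above 0 on both arrays. The brightest, at chr7:28731374-28731433, read 0.06 and 0.21 (limma adjusted p = 0.460). Ryr1 probe 1 was at 8.22 and 7.25 in knockdown cells and at 7.34 and 6.96 in control cells, with ratios of 0.87 and 0.29, and probe 2 read 0.73 and 0.26. The probe used in the test thus gave lower ratios than the others on array 1, by a margin larger than its difference between arrays. Hrc, a histidine-rich calcium-binding protein of the reticulum, read 0.23 and 0.24. It was dim, at 7.27 and 7.09 in knockdown cells and at 7.04 and 6.85 in control cells, where it was detected on 1 array. The mean log2 ratio of Hrc was 0.030 with median centring and 0.72 with processed signals.

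The genes below 0 on both arrays in this class were Casq2 and Atp2a1. Casq2, the slow and cardiac calsequestrin gene, had levels of 7.71 and 7.50 in knockdown cells and 7.93 and 7.77 in control cells, with log2 ratios of -0.22 and -0.26 and a limma adjusted p of 0.242. Atp2a1, the fast calcium pump, had log2 ratios of -0.15 and -0.19 with its brightest probe and 0.27 and 0.28 with another, at chr7:126237732-126238075, that was not well above background in control cells. The probes of Atp2a1 therefore had opposite directions, each on both arrays.

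The 3 tested energy enzymes lay near 0, with a median of 0.02. Eno3, the muscle enolase gene, was at 16.37 and 16.34 in knockdown cells and at 16.31 and 16.50 in control cells, with log2 ratios of 0.06 and -0.16. Ckm, the muscle creatine kinase, read 0.04 and 0.00, and Pgam2, muscle phosphoglycerate mutase, 0.13 and -0.07. With median centring in place of loess, Eno3 had a log2 ratio of 0.47.

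**Figure D5:**
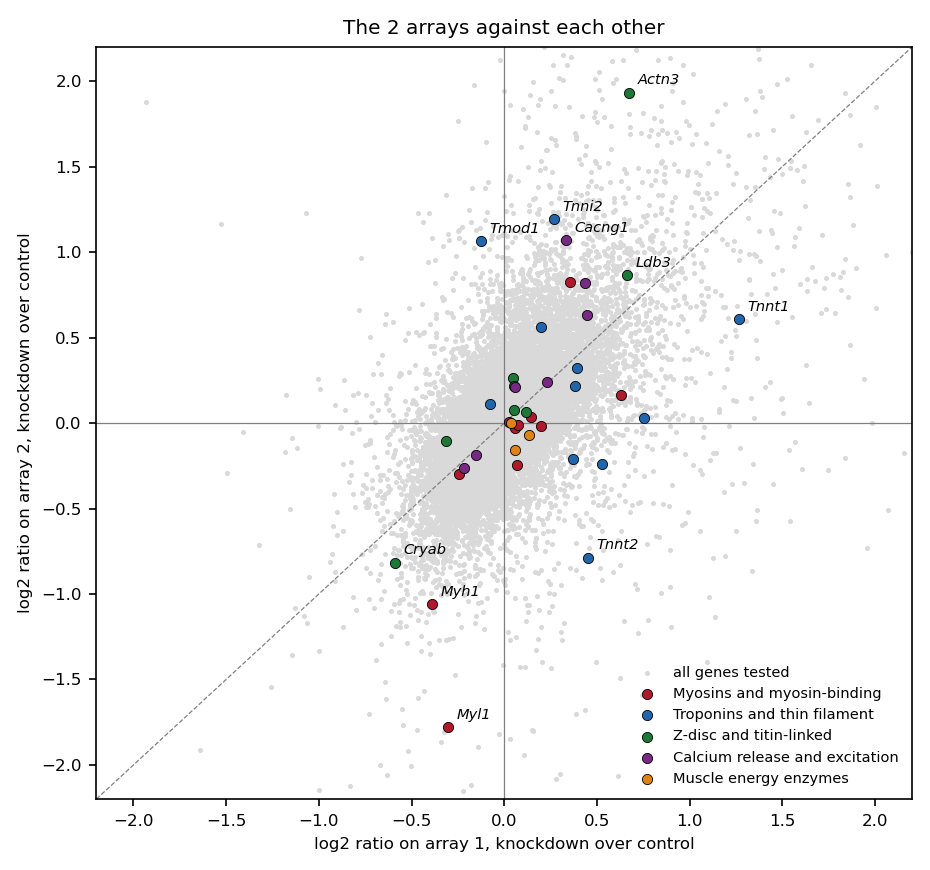
The log2 ratio of knockdown over control on array 1 (x axis) against that on array 2 (y axis) for the genes tested (grey) and the 40 tested sarcomere and excitation-contraction genes (coloured by class), with 85 genes lying beyond the axes at 2.2 and the dashed line marking equal values. Actn3, Tnni2, Cacng1 and Tmod1 lie above the line and Tnnt1, Tnnt2 and Myl1 below it.

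The arrays agreed unevenly across the classes. The median absolute difference between the arrays was 0.66 log2 units in the troponin and thin-filament class, 0.26 among the myosins, 0.21 in the Z-disc class, 0.20 among the energy enzymes and 0.10 in the calcium class, beside 0.15 over all genes. Over all 40 members it was 0.21, and 10% of them had arrays that differed by over 1. No test of these differences was made.

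Other genes of the same machinery, outside the 59, were read from lists of their own, with none called in limma and counts given against the same background. Of 45 further contractile genes 32 were tested, with 14 above 0 and 5 below 0 on both arrays and a median of 0.09. Fhl1, a LIM protein of muscle, was the 1 of them at least 2-fold higher on both arrays. It was at 16.43 and 16.20 in knockdown cells and at 15.40 and 14.85 in control cells, with log2 ratios of 1.03 and 1.35 (limma adjusted p = 0.179). Of 21 further excitation genes 17 were tested, with 8 above and 3 below and a median of 0.04. Of 17 further muscle energy genes 13 were tested, with 9 above and 3 below and a median of 0.41.

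The factors that drive these genes were mixed. Myog, the myogenin gene, was at 9.43 and 9.45 in knockdown cells and at 8.63 and 8.94 in control cells, with log2 ratios of 0.79 and 0.51 (limma adjusted p = 0.183). Myf5 read 0.21 and 0.59, Myod1 -0.20 and 0.36, and Mef2c 0.05 and -0.55. Myog and Myf5 were thus above 0 on both arrays, while Myod1 and Mef2c had opposite signs. Of 11 tested myogenic factors of 12 listed, 7 were above 0 and 1 below 0 on both arrays, with a median of 0.21.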

How the data were processed

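Total RNA of Mybbp1a knockdown and control C2C12 cells was hybridised to 2 arrays, knockdown in Cy5 and control in Cy3. Per the file headers, the scanner software was Agilent Feature Extraction 9.5.3.1 and the design covers the whole mouse genome with coordinates on build mm8. The deposited intensity values were mean spot signals and background medians, not background-subtracted, and processed signals, background-subtracted and dye-normalised, per the file headers. The log10 ratio of Cy5 over Cy3 was deposited with them, per the file headers. The authors' deposited value table held log2 ratios, matched to that log10 ratio by comparing their values. Any further centring of that table is not described in the sources used here. It and the processed signals are not independent alternatives.

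With limma 3.58.1 under R 4.3.3, signals were corrected with normexp (offset 50) and ratios normalised by loess (span 0.3) within each array. The 1639 control spots had weight 0, flagged spots (154 on array 1, 237 on array 2) were left out, and spots of a probe were averaged. Channel levels were taken after loess and Aquantile. Of 41174 probes, the RefSeq table of GRCm38.p6 named 23374 by accession and 2919 by synonym, while 6733 already had a current symbol and 8148 kept the file's name, and members were matched by the name in the files. A probe was tested if at least 1 channel was well above background on each array, and the brightest such probe stood for its gene, which left 18065 genes. Each ratio was tested against 0 with lmFit and eBayes (two-sided, Benjamini-Hochberg over all genes, 1 residual degree of freedom). The script was tested on simulated data. Alternatives were the processed signals, median centring, a normexp offset of 16, no filter, detection in both channels, the mean over probes, the authors' table, flagged spots kept and each array left out.

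The members and lists were chosen with earlier results of these data known. The rule for naming members took those at 0.5 or more on both arrays with 1 sign, with arrays differing by over 1, with the highest mean probe intensity in their class, with probes of opposite mean sign past 0.3 (none), or detected in 1 channel only. From the other lists it took genes at least 2-fold on both arrays, the factors Myod1, Myog, Myf5 and Mef2c, and Mybbp1a. All other tested members are given too, and those with levels or p-values outside the rule (among them Myh1, Myh7, Tnni2, Tnnc2, Cacnb1, Jph2, Ryr1 and Casq2) were chosen for that detail after their values were seen. Probe sequences were copied from the files, and no genome was used.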

Additional observations from a re-analysis of the deposited data

How the results depend on the processing

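No paired analysis was possible because each array already sets knockdown against control. No member and no gene was called with the scanner software's processed signals, a normexp offset of 16, no filter on dim probes, detection in both channels, the mean over probes, the authors' deposited value table or flagged spots kept. Median centring called 3045 genes higher and 58 lower (17.2% of those tested) and 9 members higher and 2 lower (27.5%). The 9 were Actn3, Cacnb1, Cacng1, Jph2, Ldb3, Mylk2, Tnnc1, Tnnc2 and Tnnt1. The 2 were Myh1 and Myh7, both detected in knockdown cells on 1 array only, and the cause was not tested. Median centring moved the median of all genes to 0.21 (0.03 with loess), which the member median of 0.17 did not exceed. Beside 22 above 0 and 7 below 0 on both arrays of 40 members, there were 16 and 11 of 40 with processed signals, 13 and 10 of 35 with the authors' table, and 29 and 13 of 57 with no filter. Members at least 2-fold on both arrays numbered 1 with processed signals, with the authors' table and with median centring. With 1 array left out there was no test, members above 0 numbered 24 to 31, below 0 9 to 16, and those at least 2-fold 1 to 6. The shares of all genes under these other settings are not given, so these member counts have no background beside them. The median ratio of all genes was -0.010 with processed signals, -0.011 with the authors' table and 0.016 with no filter.

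The mean log2 ratio reversed with processed signals and with the authors' table for Myl3 (-0.059), Mylpf (-0.015), Myoz1 (-0.020), Tcap (-0.069), Cacna1s (-0.12) and Ckm (-0.027). Those settings gave the same values and are not independent of each other. The mean ratio reversed with median centring for Myh2 (-0.13), Myl4 (0.067), Tnnt2 (0.13), Nebl (-0.19), Myoz1 (-0.088), Atp2a1 (0.027), Ckm (-0.12) and Eno3 (0.47), and with the mean over probes for Myl3 (-0.18) and Atp2a1 (0.053). The causes were not tested. With processed signals and with the authors' table Myh1 read -1.64, Myh3 1.08, Tnnt3 0.74 and Neb 1.52. With processed signals Hrc read 0.72. Leaving out an array turned the sign of genes whose arrays disagree: Myh2 (-0.031 to 0.060), Myl3 (-0.014 to 0.20), Mylpf (-0.0095 to 0.072), Tnnt3 (-0.24 to 0.53), Tpm2 (-0.21 to 0.37), Pgam2 (-0.070 to 0.13), Myl4 (-0.25 to 0.068), Tnnt2 (-0.79 to 0.45), Nebl (-0.075 to 0.11), Tmod1 (-0.13 to 1.07), Eno3 (-0.16 to 0.060), Myod1 (-0.20 to 0.36), Mef2c (-0.55 to 0.048) and Cdh15 (-0.14 to 0.75).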

Other observations

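A list of nonmuscle relatives of the sarcomere, calcium-handling and energy proteins, from cytoskeletal genes to enzymes, was nearly all detected, with 29 of 30 tested. Of these, 12 were above 0 and 7 below 0 on both arrays, with a median log2 ratio of 0.06. The genes named next were chosen after their values were seen. The nonmuscle alpha-actinin genes Actn1 (0.10 and -0.15) and Actn4 (-0.17 and -0.38) had no ratio above 0 on both arrays, beside 0.67 and 1.93 for Actn3. The nonmuscle myosin heavy chain gene Myh9 read 0.49 and 0.81 and the light chain gene Myl6 0.54 and 0.55, and Myh10 read -0.09 and 0.06. No test between these genes was made.

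Outside the 59 genes, the Z-disc gene Pdlim3, an alpha-actinin binding protein, was at 12.62 and 11.30 in knockdown cells and at 11.77 and 9.45 in control cells, with log2 ratios of 0.85 and 1.85. Trim54, a ubiquitin ligase of the sarcomere, was at 10.50 and 10.56 in knockdown cells and at 11.33 and 12.69 in control cells, with log2 ratios of -0.83 and -2.13. The skeletal actin gene Acta1 read 1.19 and -0.40. The glycolytic genes Aldoa (0.51 and 1.09) and Ldha (0.66 and 1.01) were above 0.5 on both arrays. These genes too were chosen after their values were seen, and none passed the limma test.

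The listed names Xirp1 and Mybpc1 were reached only through an accession. The probe with the accession of Xirp1 read -0.07 and -0.55, and that of Mybpc1, which was detected in no channel, 0.07 and 0.19.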
